A study of Mus musculus with 212 samples.

Results

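Isl1 was measured by a pair of TaqMan assays, named Isl1-1 and Isl1-2 in the deposited tables, among 42 assays for 33 genes in single mouse cells of cardiovascular lineages. Both rows were taken from each of the 7 tables, so the account covers 1 gene of 33 and 2 assays of 42. Isl1 was detected in 21 of 192 distinct cells, or 10.9% (exact 95% interval 6.90% to 16.2%). All 21 were detected by Isl1-2. Isl1-1 was detected in 3 of the same 21 cells and in no other cell. Intervals here are exact (Clopper-Pearson) and cover counting error only.

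Isl1 encodes a LIM-homeodomain transcription factor. In the mouse embryo it marks progenitors of the second heart field, which add cells to the outflow tract, right ventricle and atria, and most of their progeny lose it as they differentiate into heart muscle. Nkx2.5 is a homeodomain factor that is switched on in committed cardiac cells, Tnnt2 encodes cardiac troponin T of the sarcomere, and Flk-1 (Kdr) is a VEGF receptor of mesodermal progenitors and endothelium. Cells that carry Isl1, Nkx2.5 and Flk-1 together have been described as multipotent cardiovascular progenitors.

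The deposited value is the quantification cycle (Ct), which is lower when a cell holds more template, and an assay with no signal is listed at 25. Levels are given as 25 minus Ct, in cycles, so that 0 means not detected and each cycle stands for a doubling at full PCR efficiency. Assays differ in efficiency and onset, so levels are compared between cells for the same assay and not between genes. The 6 reference types, with 5 cells each, were CPC, CM, SMC, FB, EDC and ES, and the labels give no long names for them. The other cells were named D5, D6, D7 and D8 (6 cells each), D23 and D29 (10 each), E7.5, E8.5, E9.5 and E10.5 (6 each), a separate table of 72 E10.5 cells, and adult and neonatal atrial and ventricular cells (10 adult and 5 neonatal per chamber). No genotype, strain, age beyond these names, animal or culture is given.

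The sample titles name another origin or stage than the table for the D5-D8, E7.5-E10.5 and D23-D29 cells, and the names inside the tables were followed. The D5-D8 cells are titled E10.5 cells, and the D23-D29 and E7.5-E10.5 cells ES-derived cells at early and late stages. D names were read here as days of culture of ES-derived cells, and E names as embryonic days. Of the 200 cells, 8 recur in a second table with all 42 values equal, and 2 of these detect Isl1. CM-2 is the same record as D29-3, and E10.5-3 of the stage table is the same record as E10.5-65 of the large E10.5 table. Tnnt2 was detected in 0 of 5 CPC cells, in 5 of 5 CM cells and in all 30 heart cells. Cdh5, an endothelial cadherin, was detected in 5 of 5 EDC cells, and Myh11, smooth muscle myosin, in 5 of 5 SMC cells. Since each named set is 1 sample of unknown source, no test was run between sets, and every SD below is the spread between cells.

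Isl1 was found mainly in the CPC cells and in the cells of D6 to D8. It was present in most CPC, D6 and D7 cells, in some D8 cells, in 1 to 3 cells each at E8.5, E10.5 and D29, and in none of the D5, D23, E7.5, E9.5 and heart cells. Among the CPC cells, Isl1-2 read 0 in CPC-1, 3.54 in CPC-2, 3.47 in CPC-3, 5.64 in CPC-4 and 4.39 in CPC-5. The mean was 3.41 ± 2.10 cycles (SD, n = 5), and the level in CPC-4 was the highest of all cells. The SMC, FB, EDC and ES cells had 0 detecting cells of 20, which allows a share of up to 16.8%.

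In the D5-D8 table the detecting cells numbered 0 of 6 on D5, 5 of 6 on D6, 4 of 6 on D7 and 2 of 6 on D8. The 5 detecting D6 cells had Isl1-2 levels of 3.12, 1.99, 4.74, 3.58 and 4.26, and the remaining cell, D6-6, was at 0. The 4 detecting D7 cells had 4.04, 3.87, 2.92 and 3.75, with 2 cells at 0. The 2 detecting D8 cells had 5.44 and 4.46, with 4 cells at 0. The share was 33.3% on D8 (interval 4.33% to 77.7%) and 83.3% on D6 (interval 35.9% to 99.6%). These intervals overlapped, as did the levels of the detecting cells.

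Isl1 was rare in the D23 and D29 cells and in the embryo cells. No D23 cell of 10 detected it. On D29, Isl1-2 was 2.48 in D29-3, 0.22 in D29-7 and 0 in the other 8 cells. The value of D29-7 was the lowest detected anywhere, and the next lowest was 1.99.

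Among embryo cells Isl1-2 was 3.59 in E8.5-6 and 0 in the other 17 cells of E7.5 to E9.5. In the large E10.5 table it was detected in 3 of 72 cells, or 4.17% (interval 0.868% to 11.7%), at 2.75 in E10.5-61, 4.68 in E10.5-65 and 4.49 in E10.5-72. Without the 6 cells that recur, 2 of 66 cells remained. Over all 90 distinct embryo cells the share was 4.44% (interval 1.22% to 10.99%), and over the 24 cells of D5 to D8 it was 45.8% (interval 25.6% to 67.2%).

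Isl1 was not detected in any atrial or ventricular cell of the heart. The 30 cells gave 0 on both assays, so the share could be as high as 11.6%, and the 20 adult cells alone allow up to 16.8%. In these 2 tables the positive control column is displaced by 1 row against the other tables, and cells read in that shifted way would show Isl1-2 in 5 of 15 atrial and 5 of 15 ventricular cells. The cells did not follow the shift. Over 5 genes with paired assays, the mean absolute difference between partner assays was 1.74 cycles in atrial and 1.46 in ventricular cells with the names as given, and 7.91 and 6.17 with shifted names.

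**Figure D1:**
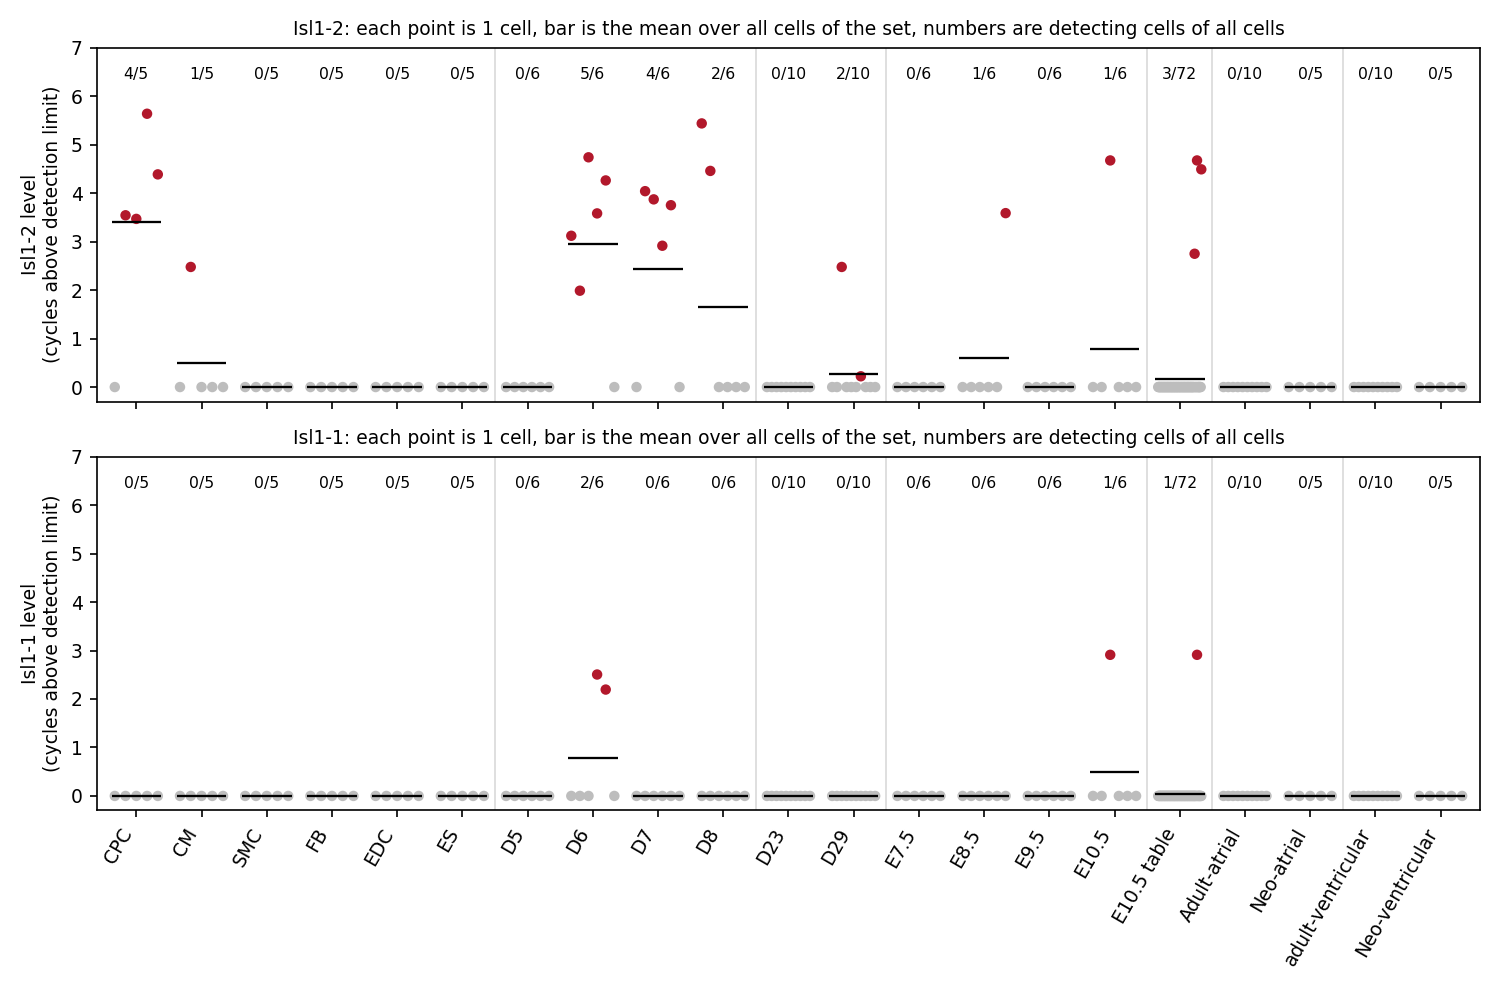
Levels of Isl1-2 (upper panel) and Isl1-1 (lower panel) in every cell, in cycles above the detection limit, by named set; red points detect the assay, grey points do not, the black bar is the mean over all cells, and the numbers count detecting cells. CPC, D6, D7 and D8 hold 15 of the 21 distinct detecting cells, and the heart sets at the right hold none.

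Differences between sets were read against all 42 assays with a step of 1 cycle in the mean. CPC cells stood above every other reference type for Isl1-2. The difference was 2.91 cycles against CM cells, where 40.5% of assays were at least 1 cycle higher in CPC cells. It was 3.41 cycles against SMC (33.3% of assays at least 1 cycle higher), FB (40.5%), EDC (33.3%) and ES cells (35.7%), each with Isl1-2 at 0 in every cell. The 1 detecting CM cell is the record shared with D29, and without it the CM cells have no detecting cell.

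On D6 the mean Isl1-2 level was 2.95 ± 1.73, against 0 on D5 (SD between cells, n = 6 each), and a gain of at least 1 cycle was seen for 45.2% of assays. The level was 1.65 ± 2.57 on D8, against 2.95 ± 1.73 on D6, a difference of -1.30 cycles. A drop of at least 1 cycle was seen for 28.6% of assays. That sign rests on the cells at 0: between detecting cells alone the difference was 1.41 cycles, higher on D8, and with each cell centred on Actb (cytoskeletal actin) it was 0.38. Actb averaged 7.09 ± 1.59 on D8 and 11.57 ± 1.58 on D6, and its part in the difference was not tested.

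Set by table, Isl1-2 averaged 0.13 ± 0.55 in the 20 cells of D23 and D29 and 1.76 ± 2.05 in the 24 cells of D5 to D8. The difference was -1.62 cycles, and 33.3% of assays were at least 1 cycle lower in the later table. Isl1-1 differed by less than 1 cycle in all of these comparisons, since its mean exceeded 0 only on D6 (0.78 ± 1.22) and at E10.5 (0.49 ± 1.19 in the stage table). With such shares among all assays, a difference of at least 1 cycle was not particular to Isl1 in these comparisons. Shares at the size of the Isl1-2 differences were not counted.

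The 2 assays of Isl1 differed widely in how often they gave a signal. In the 3 cells with both, Isl1-2 read 3.58 in D6-4, 4.26 in D6-5 and 4.68 in E10.5-65, and Isl1-1 read 2.51, 2.19 and 2.91. Isl1-2 was thus 1.64 ± 0.51 cycles higher (SD, n = 3 cells, range 1.08 to 2.07). In 18 cells Isl1-2 was detected without Isl1-1, and no cell had Isl1-1 alone. The Isl1-2 level was above this mean offset, which comes only from cells with a signal on both assays, in 20 of the 21 cells.

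Among the 13 cells with Isl1-2 at or above 3.58, the lowest level at which both assays gave a signal, Isl1-1 was detected in 3. The 3 cells with the highest Isl1-2, which were CPC-4, D8-1 and D6-3, all read 0 on Isl1-1. The concentrated positive control gave both assays a signal. In the control common to 3 tables (reference cells, D5-D8, E7.5-E10.5), Isl1-2 read 11.27 and Isl1-1 10.39, a difference of 0.88. In the control of the D23-D29 table they read 12.27 and 12.61, a difference of -0.34. The negative controls were at 0 on both assays in all 6 tables that hold one, and the large E10.5 table holds no control.

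Isl1 had the least overlap of the 9 genes with paired assays. The less often detected assay gave a signal in 14.3% of the cells with the other for Isl1, against 31.6% for Kit, 69.1% for Gata4, 81.3% for Myh7, 85.4% for Mef2C, 94.9% for Nkx2.5, 95.7% for Tnni3, 97.4% for Tnnt2 and 97.8% for Myh6. The highest Isl1-2 reading was 5.64. Among cells whose more often detected assay read at most the same number of cycles, a range that held 56 of 57 such cells for Kit and 5 of 136 for Nkx2.5, the share was 14.3% for Isl1 (3 of 21 cells, interval 3.05% to 36.3%), 5.26% for Myh7 (1 of 19), 19.4% for Gata4 (6 of 31), 30.4% for Kit (17 of 56), 40% for Nkx2.5 (2 of 5), and 50% for Tnnt2 (4 of 8), Myh6 (3 of 6) and Tnni3 (6 of 12). Mef2C alone stayed high at 80.4% (82 of 102, interval 71.4% to 87.6%). In this range the Isl1 share lay among those of the other genes, and its interval overlapped those of all but Mef2C. The overlap says little where only 5 to 12 cells remained, as for Nkx2.5, Tnnt2, Myh6 and Tnni3. The cut kept all 21 Isl1 cells, and the same reading need not mean the same amount of template on another assay.

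**Figure D2:**
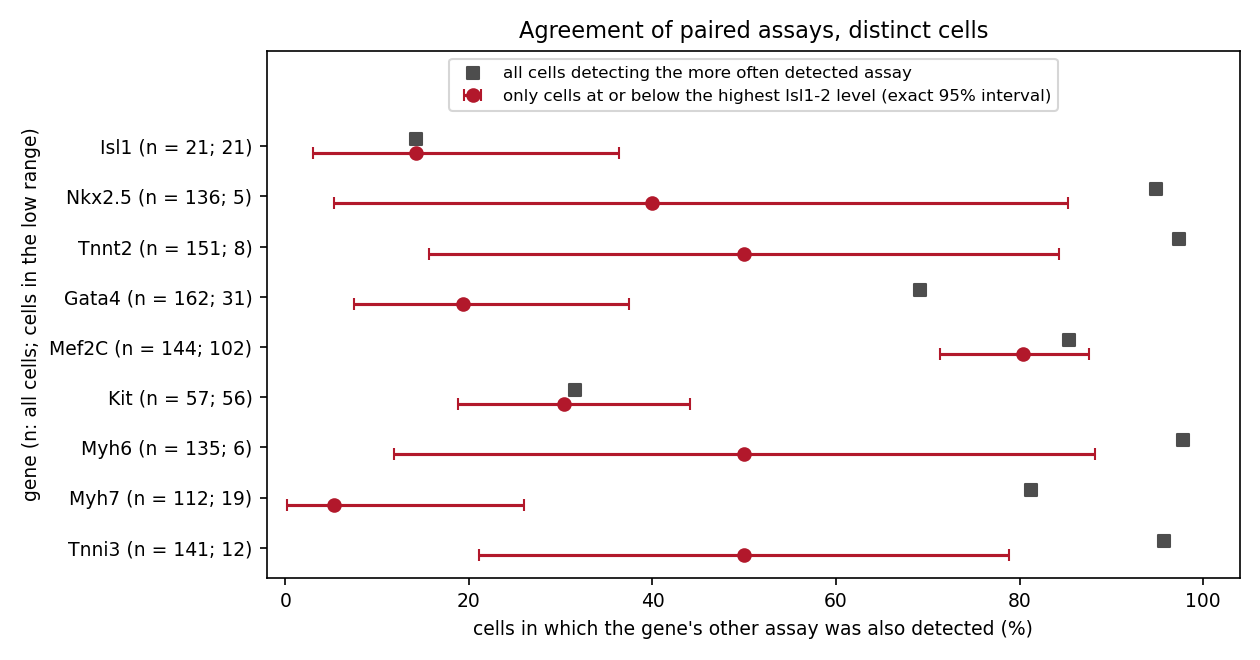
For each of the 9 genes with paired assays, the percentage of cells detecting the more often detected assay in which the partner was also detected, over all such cells (grey squares) and over cells reading at most 5.64 on it, the highest Isl1-2 level (red points with exact 95% intervals). Isl1 is at 14.3% on both counts, while most other genes fall from above 80% to 50% or less in the low range.

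The cells with Isl1 were not of one kind with respect to Nkx2.5, Tnnt2 and Flk-1. Nkx2.5 was detected in 12 of the 21 (57.1%, interval 34.02% to 78.2%), against 124 of the 171 cells without Isl1 (72.5%, 65.2% to 79.1%). Tnnt2 was detected in 16 of 21 (76.2%, 52.8% to 91.8%), against 138 of 171 (80.7%, 74.0% to 86.3%). Flk-1 was detected in 11 of 21 (52.4%, 29.8% to 74.3%), against 52 of 171 (30.4%, 23.6% to 37.9%). For each of the 3 genes the intervals overlapped.

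Nkx2.5 and Flk-1 mostly marked different Isl1 cells: 8 had Nkx2.5 without Flk-1, 7 had Flk-1 without Nkx2.5, 4 had both and 2 had neither. The 4 with both were D6-3, D7-4, E10.5-65 and E10.5-72, and all 4 also had Tnnt2. Flk-1 in E10.5-72 was at 0.42, close to the detection limit. Having both genes was about as frequent in cells with Isl1 (19.05%, interval 5.45% to 41.9%) as in cells without it (18.7%, interval 13.2% to 25.4%). Read the other way, Isl1 was detected in 7 of 27 cells with Flk-1 alone of the pair (25.9%, interval 11.1% to 46.3%), in 4 of 36 with both (11.1%), in 8 of 100 with Nkx2.5 alone (8%) and in 2 of 29 with neither (6.90%).

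The level of Isl1 differed little by these genes. In detecting cells Isl1-2 had a median of 3.96 (range 0.22 to 5.44) with Nkx2.5 and 3.54 (1.99 to 5.64) without it. The medians were 3.81 with Tnnt2 and 3.54 without, and 4.26 with Flk-1 and 3.67 without. In each case the ranges overlapped.

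Hand1 and Pdgfra were detected in a larger share of the cells with Isl1 than of the cells without it. Hand1 is a basic helix-loop-helix factor of cardiac mesoderm and the left ventricle, and Pdgfra a growth factor receptor of early mesoderm and mesenchyme. Hand1 was detected in 17 of 21 cells with Isl1 (81.0%, interval 58.1% to 94.6%), against 66 of 171 without (38.6%, 31.3% to 46.3%). Pdgfra was detected in 16 of 21 (76.2%, 52.8% to 91.8%), against 44 of 171 (25.7%, 19.4% to 32.96%). The intervals did not overlap for either gene, though cells of a set share their source and these are not independent samples. Within single sets the direction varied. On D7 each gene was detected in 3 of 4 cells with Isl1 and 2 of 2 without, and on D8 in 2 of 2 and 1 of 4. In the large E10.5 table Hand1 was detected in 1 of 3 and 31 of 69, and Pdgfra in 1 of 3 and 16 of 69.

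Of the 35 cells with both Hand1 and Pdgfra, 14 had Isl1 (40%, interval 23.9% to 57.9%), against 7 of the other 157 (4.46%, 1.81% to 8.97%). The D5 cells show that the pair also occurred without Isl1, as Hand1 was detected in 6 of 6 and Pdgfra in 5 of 6 of them. Kit, a receptor tyrosine kinase, was found in 14 of 21 cells with Isl1 and in 79 of 171 without. Mesp1, a factor of the earliest cardiac mesoderm, was found in 3 of 21 and in 5 of 171. Hand2, a relative of Hand1 used in the right ventricle and outflow tract, was detected in all 21 and in 149 of 171. Cells with Isl1 detected 23.2 ± 5.69 assays and cells without it 22.03 ± 6.44. These numbers count at least 1 Isl1 assay in every cell with Isl1 and none in the others, so no difference is read from them. Actb averaged 9.51 ± 2.45 in cells with Isl1 and 7.94 ± 2.58 in cells without.

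**Figure D3:**
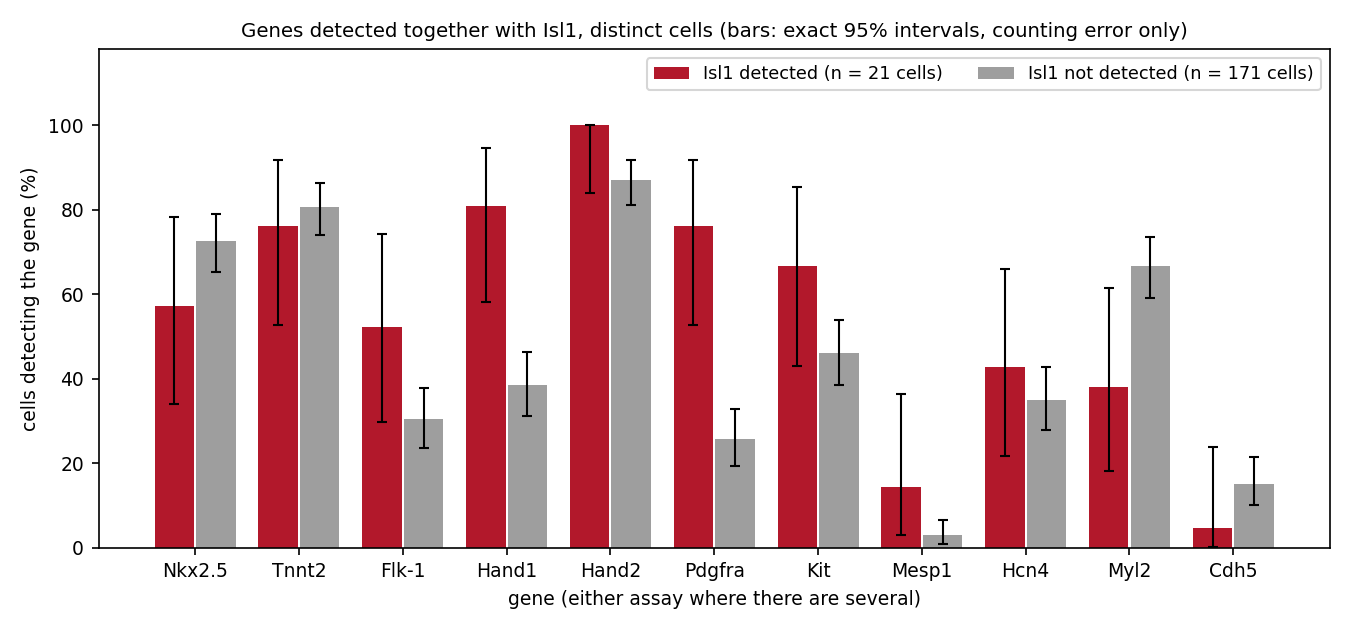
Percentage of distinct cells detecting each of 11 genes, in the 21 cells with Isl1 (red, left bar) and the 171 without (grey, right bar), with exact 95% intervals for counting error. The intervals are apart for Hand1 and Pdgfra and overlap for Nkx2.5, Tnnt2 and Flk-1.

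Over all 192 cells the assays most like Isl1-2 by Spearman correlation were Isl1-1 (0.37), Pdgfra (0.34), Hand1 (0.27), Mesp1 (0.19) and Actb (0.19). The least alike were Tnnt2-2 (-0.20), Tnni3-2 (-0.19) and Myl2 (-0.19), all of the heart muscle sarcomere. In the E10.5 table, where only 3 of 72 cells give Isl1-2 a value, the highest were Isl1-1 (0.59), Flk-1 (0.28), Sln (0.24), Kit-1 (0.19) and Cnn1 (0.16), and the lowest Tbx5 (-0.28), Pou5f1 (-0.22) and Tnni3-2 (-0.14). These are descriptions across cells that share sets, and with most Isl1-2 values tied at 0 they are weak throughout.

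The CPC and D6 cells with Isl1 formed a first pattern, of mesodermal genes with few sarcomere genes beside Tnnt2. All 9 had Hand1, Hand2 and Pdgfra, 7 had Flk-1 and 7 had Kit, while 1 had Nkx2.5 and 0 had Myl2, the ventricular myosin light chain. Tnni3-1 was detected in 2 of the 9, and Actn2, Myh6-1 and Myh7-2 in 1 each. Hand1 ranged from 6.31 to 13.34 in them and Pdgfra from 6.92 to 9.47. Flk-1 was 5.84 in CPC-2, 4.04 in CPC-4 and 7.21 in CPC-5, and was not detected in CPC-3, the only Isl1 cell with none of Nkx2.5, Tnnt2 and Flk-1. The D5 cells, all without Isl1, had Hand1 in 6 of 6, Pdgfra and Flk-1 in 5 of 6, and Nkx2.5 in 0 of 6. These mesodermal genes were therefore not particular to the cells with Isl1.

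Tnnt2 separated the 2 sets within this pattern. It was at 0 on both assays in the 4 CPC cells and was detected in all 5 D6 cells with Isl1, where Tnnt2-1 read 6.20, 0, 4.57, 9.39 and 4.59 and Tnnt2-2 read 7.12, 5.25, 0, 9.31 and 4.09. Nkx2.5-1 was detected only in D6-3 among them, at 7.48, with Nkx2.5-2 at 0. Mesp1 was detected at 5.27 in CPC-5, 2.54 in D6-3 and 5.91 in D6-5.

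The cells of these sets without Isl1 were CPC-1 and D6-6. CPC-1 had Hand1 at 11.76 and Pdgfra at 8.22, and Flk-1, Nkx2.5 and Tnnt2 at 0. D6-6 had Nkx2.5-1 at 10.69, Tnnt2-1 at 12.40, Flk-1 at 5.52, Hcn4 at 4.04 and Hand1 at 0. It was above all 5 D6 cells with Isl1 for Nkx2.5-1 and Tnnt2-1 and below them for Hand1. Its Actb was 8.66, against 11.36 to 13.07 in the D6 cells with Isl1.

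The 6 D7 and D8 cells with Isl1 formed a second pattern, in which Isl1 stood beside a muscle program that most cells of these days carried. All 6 had Nkx2.5 and Tnnt2, 5 had Myl2, 1 had Flk-1, 5 had Hand1, 5 had Pdgfra and 0 had Mesp1. Of the 6 D7 and D8 cells without Isl1, 6 had Tnnt2, 5 had Nkx2.5 and 4 had Myl2. Flk-1 was detected in 2 of those 6, Hand1 in 3, Pdgfra in 3 and Mesp1 in 0. Nkx2.5-1 read 9.11, 9.66, 9.74 and 9.05 in the D7 cells with Isl1, against 0 and 9.12 in the D7 cells without it. On D8 it read 10.32 and 10.15 with Isl1, against 9.58, 7.62, 9.63 and 7.88 without. Nkx2.5-1 was higher in both D8 cells with Isl1 than in any D8 cell without it. The same held for the sarcomere assays Actn2, Myh6-1, Myh6-2 and Myh7-2. The other sarcomere assays overlapped, which were Tnnt2-1, Tnnt2-2, Tnni3-1, Tnni3-2, Myl2 and Myh7-1. Tnnt2-1 was at 12.38 and 10.55 with Isl1, against 9.51 to 12.32 without.

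Hcn4 was detected together with Isl1 in these cells. It encodes the pacemaker channel of the sinoatrial node, which in the early heart tube is also found in differentiating muscle. On D7 Hcn4 was 3.49, 3.28, 2.45 and 3.37 in the cells with Isl1, against 0 and 0 in those without. On D8 it was 4.34 and 4.80 in the cells with Isl1, against 0, 0, 2.63 and 0 in those without. Over the 2 sets it was detected in 6 of 6 cells with Isl1 (interval 54.1% to 100%) and in 1 of 6 without (0.421% to 64.1%). The levels of Hcn4 did not overlap on either day. Nor did those of Actn2, whose lowest level with Isl1 was 7.80 on D7 and 9.63 on D8. Its highest level without Isl1 was 7.15 on D7 and 9.42 on D8. How many of the 40 other assays lacked overlap was not counted. Averaged within these 2 days, 50% of the 40 other assays were also at least 1 cycle higher in cells with Isl1. The link did not hold on D6, where Hcn4 was at 0 in all 5 cells with Isl1 and at 4.04 in the one without. Over all distinct cells Hcn4 was detected in 9 of 21 with Isl1 (42.9%) and 60 of 171 without (35.1%). In the large E10.5 table the counts were 1 of 3 and 34 of 69, and on D29 0 of 2 and 4 of 8.

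Pdgfra differed by Isl1 in opposite directions on D7 and D8, while Hand1 overlapped on both days. On D7 Pdgfra was 0, 4.49, 4.42 and 6.57 in the cells with Isl1, against 8.67 and 7.61 in those without, with no overlap. Hand1 was 10.02, 8.59, 8.84 and 0 on D7 with Isl1, against 11.33 and 6.43 without, and Kit-1 was detected in 1 of 4 and 0 of 2. On D8 Hand1 was 5.11 and 5.95 in the cells with Isl1, against 10.45 in D8-3 and 0 in the other 3 cells without it. Pdgfra was 8.17 and 5.11 with Isl1, against 4.57 in D8-6 and 0 in the other 3. Kit-1 was 4.44 and 3.73 with Isl1, against 0 in all 4 without. The D8 groups did not overlap for Pdgfra and Kit-1 and overlapped for Hand1. Cells with Isl1 detected 31 assays each on D8, Isl1-2 among them, against 20 to 28 in those without. The part of this number in the differences was not tested.

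**Figure D4:**
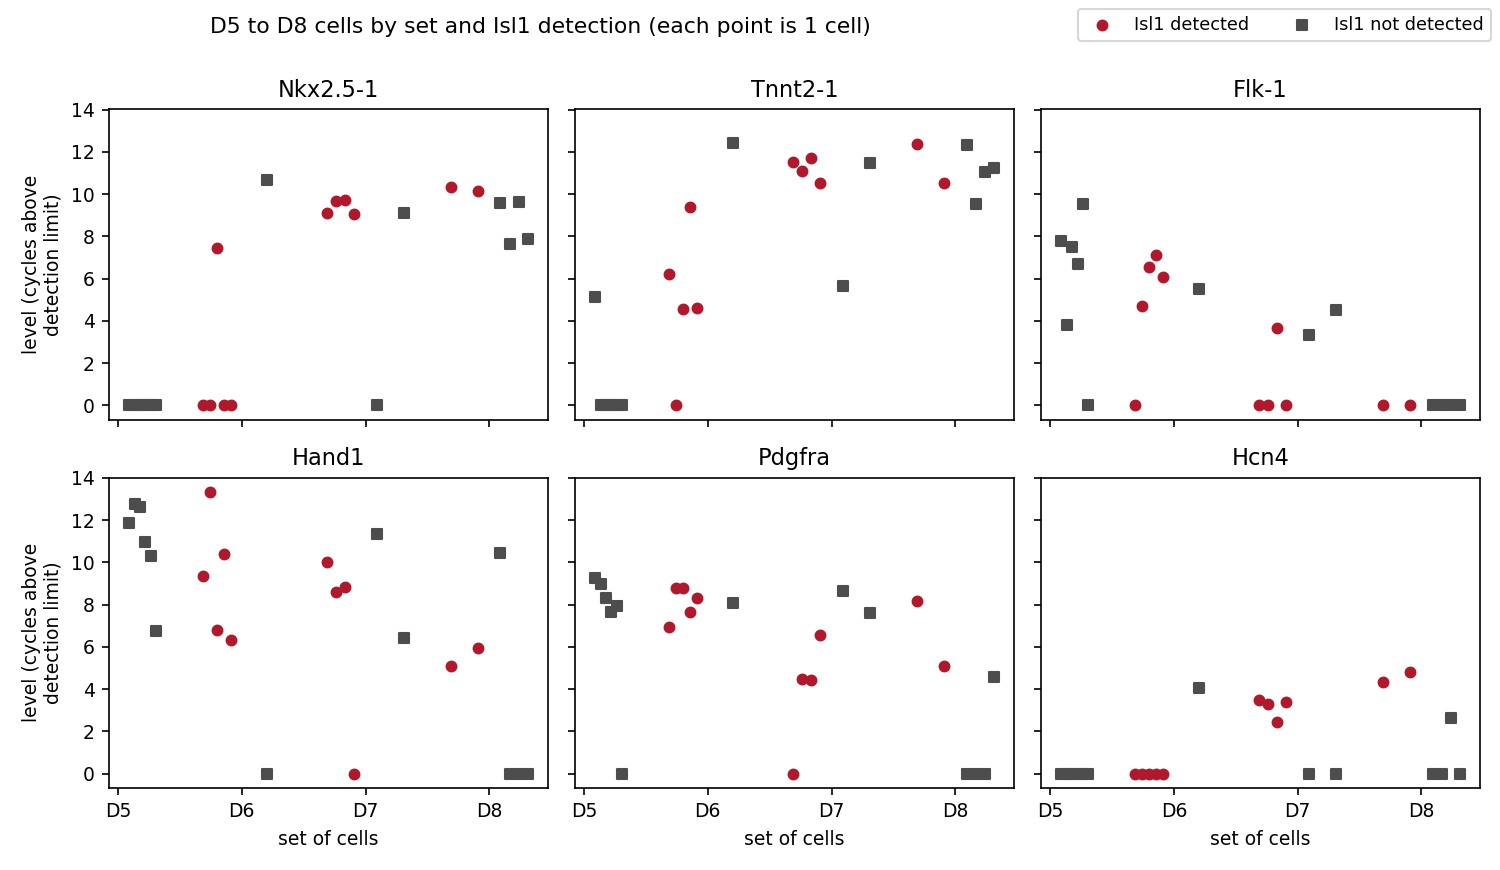
Levels of 6 assays in each of the 24 cells of D5 to D8, in cycles above the detection limit, with Isl1-detecting cells (red circles) left of non-detecting cells (grey squares) within each set. Hcn4 is detected in all 6 D7 and D8 cells with Isl1 and in 1 of 6 without, and Nkx2.5-1 is absent from 4 of 5 D6 cells with Isl1.

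Over the whole D5-D8 table the 11 cells with Isl1 were higher by at least 1 cycle than the 13 without in 14 of the 40 other assays (35%), and lower in 5 (12.5%). The median difference was 0.47 cycles. The 12 largest were Tnnt2-1 (2.35), Mef2C-1 (2.17), Gata4-1 (1.97), Nkx2.5-1 (1.76), Myh6-1 (1.73), Hand2 (1.72), Tbx5 (1.66), Tnnt2-2 (1.57), Hcn4 (1.46), Myh7-2 (1.42), Mef2C-2 (1.42) and Myh6-2 (1.34). These are cardiac transcription factors, sarcomere genes and the pacemaker channel. Nkx2.5-1, for instance, averaged 5.95 ± 4.78 in cells with Isl1 and 4.19 ± 4.77 in cells without. The difference was smaller than either spread between cells.

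The assays lower in cells with Isl1 were Sm22A (-2.86), a smooth muscle actin-binding protein also made by early heart muscle, Cnn2 (-1.27), Flk-1 (-1.19), Fn1 (-1.16), which encodes fibronectin, and Vim (-1.05), which encodes vimentin. Among 10 cardiomyocyte assays, 6 gained at least 1 cycle in cells with Isl1 and 0 lost as much (median 1.22), and of the 14 progenitor assays other than Isl1 7 were higher and 1 lower (median 0.98).

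The direction of the muscle genes depended on which days were set against each other. All 6 D5 cells lack Isl1, Nkx2.5 and Myh6-1. D6 holds 5 of the 11 cells with Isl1 and 1 of the 7 D6 to D8 cells without it. Over D6 to D8 alone, with 11 cells with Isl1 and 7 without, the 10 cardiomyocyte assays included 0 that were higher by a cycle or more and 8 that were lower (median -2.14), beside 17.5% of the 40 assays higher and 27.5% lower. Tnnt2-1 then differed by -2.11 and Nkx2.5-1 by -1.83, while Hand1 was higher by 3.67 and Pdgfra by 2.16. Actb was higher by 1.84. With each cell centred on Actb, 6 of the 40 assays were higher and 21 lower, and of the 14 progenitor assays 4 were higher and 7 lower, where the uncentred counts were 4 and 2. Averaging the differences within D7 and within D8, all 10 cardiomyocyte assays were higher (median 2.49), beside 50% of assays higher and 10% lower. The only D7 cell that lacks Nkx2.5, D7-1, is 1 of just 2 without Isl1 there.

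In the reference table the 5 cells with Isl1, of which 4 are CPC and 1 is CM, were compared with the 25 others. At least 1 cycle higher were 13 of 40 assays (32.5%) and 6 were lower (15%), with a median difference of 0.42. Hand1 averaged 10.22 ± 2.25 in cells with Isl1 and 1.60 ± 3.38 in the rest, a difference of 8.62 cycles, and was detected in 5 of 5 and 5 of 25. Pdgfra averaged 6.52 ± 3.74 and 0.97 ± 2.34 in the same order, a difference of 5.55, and was detected in 4 of 5 and 4 of 25. Kit-2 was detected in 3 of 5 and 1 of 25.

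The other assays higher in the reference cells with Isl1 were Sm22A (3.33), Flk-1 (2.52), Cnn2 (2.30), Gata4-2 (2.11), Vim (1.99), Kit-1 (1.87), Kit-2 (1.83), Gata4-1 (1.35), Hand2 (1.31), Actb (1.21) and Mesp1 (1.05, detected in 1 of 5 and 0 of 25). Lower were Myh11 (-1.95), the endothelial genes Cdh5 (-1.87), Vwf (-1.70) and Pecam1 (-1.04), the pluripotency factor Pou5f1 (-1.75) and Mef2C-1 (-1.73). Of the progenitor assays 9 of 14 were higher and 1 was lower, while 0 of 10 cardiomyocyte assays differed by a full cycle either way. With 4 of the 5 cells from the CPC set, cells with Isl1 and CPC cells cannot be told apart here.

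The 6 remaining Isl1 cells came from D29, E8.5 and E10.5. D29-3 and D29-7 were muscle cells with Nkx2.5-1 at 8.39 and 6.17 and Tnnt2-1 at 10.37 and 10.66, with Hand1 at 6.76 and 5.97 and with neither Flk-1 nor Pdgfra. The 8 D29 cells without Isl1 also all had Nkx2.5 and Tnnt2. Of them 0 had Flk-1, 4 had Hand1 and 3 had Pdgfra. E8.5-6 was also a muscle cell, with Nkx2.5-1 at 10.02, Tnnt2-1 at 12.63, Myl2 at 7.99 and Hcn4 at 4.39, and it had no Hand1 or Flk-1.

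The 3 E10.5 cells with Isl1 all detected Flk-1, E10.5-72 only at 0.42. Flk-1 was detected in 19 of the 69 E10.5 cells without Isl1 (27.5%, interval 17.5% to 39.6%). None of the 3 detected Tbx5, an atrial and left ventricular T-box factor, which 55 of those 69 cells detected. E10.5-61 had the endothelial genes Cdh5 (10.77), Pecam1 (7.62), Vwf (4.43) and Flk-1 (7.58), together with Hand1 (6.17) and Pdgfra (7.93), and neither Nkx2.5 nor Tnnt2. It was the only cell with both Isl1 and Cdh5, which 26 of the 171 cells without Isl1 detected.

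E10.5-65 had Nkx2.5-1 at 9.43, Tnnt2-1 at 12.23 and Flk-1 at 6.21, with Sln, the atrial muscle protein sarcolipin, at 9.22 and Myl2 at 0. Sln was found in 1 of the 3 E10.5 cells with Isl1 and in 4 of the 69 E10.5 cells without it. E10.5-72 had Nkx2.5-1 at 10.01, Tnnt2-1 at 13.07 and Myl2 at 14.33, with Sln at 0. The 2 muscle cells with Isl1 at E10.5 thus differed in Sln and Myl2. They did not differ in Tbx5 and Hand1, which neither detected. E10.5-65 also had Myh7, a further ventricular marker, at 10.43 on Myh7-2 and 9.72 on Myh7-1.

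**Figure D5:**
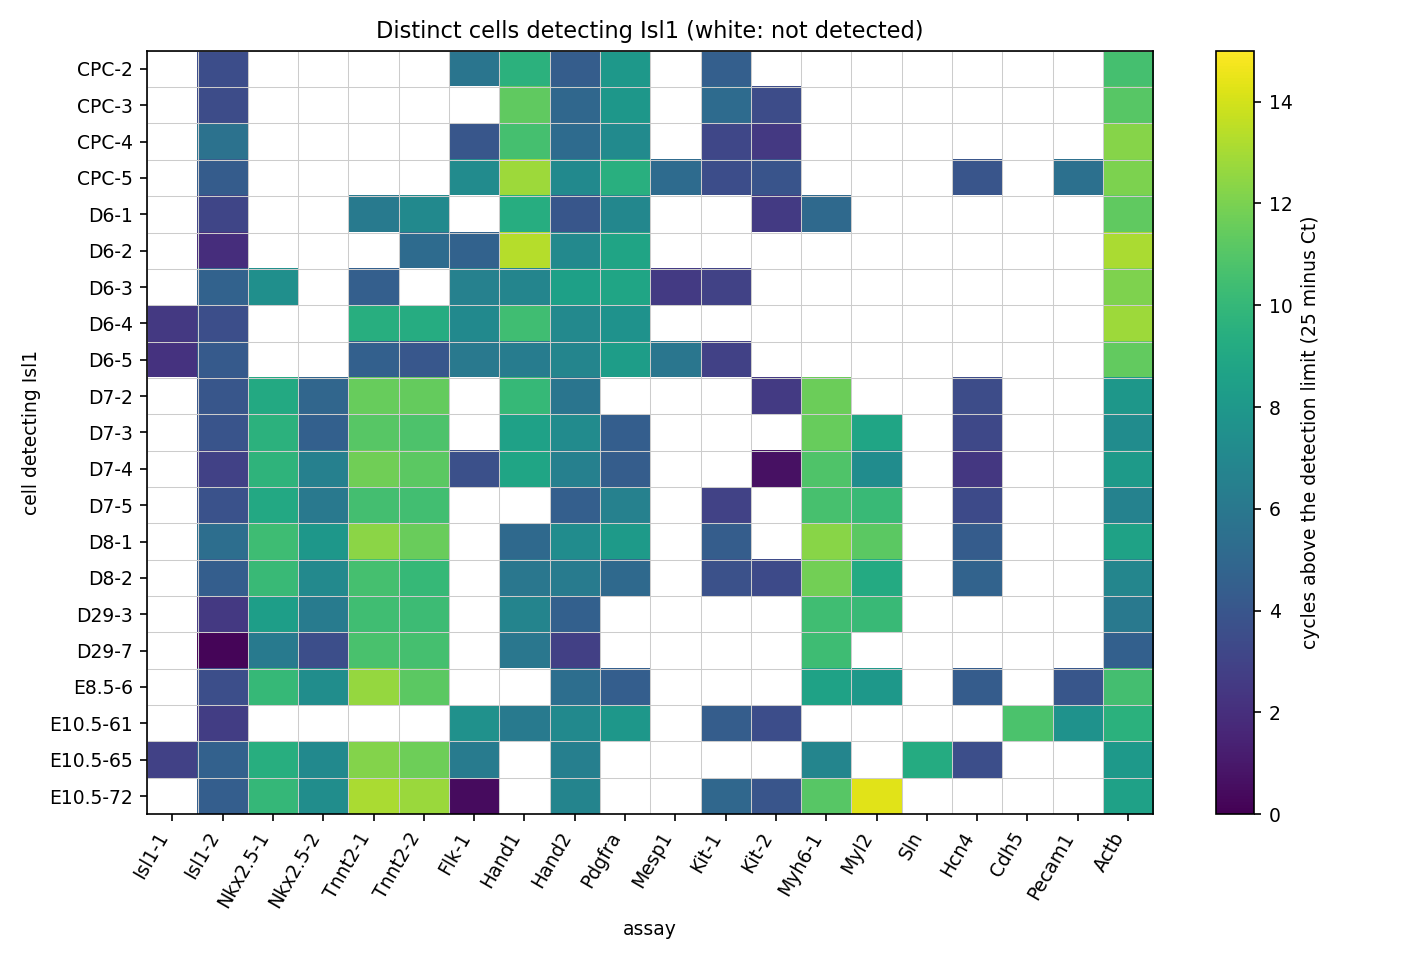
Levels of 20 assays in the 21 distinct cells detecting Isl1, in cycles above the detection limit, with white for not detected; colours compare cells within an assay and not assays with each other. The CPC and D6 rows carry Hand1, Pdgfra and mostly Flk-1, the D7 and D8 rows carry Nkx2.5, Tnnt2, Myh6-1 and Hcn4, and E10.5-61 alone carries Cdh5.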

How the data were processed

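Single cells had been sorted into strips, lysed and reverse transcribed, per the labels' protocols. The authors deposited Ct values, 1 table for each of 7 sets of samples. The sources used here do not give the threshold, any quality filter or any reference-gene correction. Ct ends at 25, so a weak gene and an absent one read alike. Samples took their group from the table in their description and their set from the cell name. The 12 control columns were kept apart, and 8 repeated cells counted once in pooled counts. Levels are 25 minus Ct, and a gene counts as detected if either assay is below 25. Python 3.11.15, pandas 2.3.3 and scipy 1.17.1 were used, and the differences were checked on simulated data. With no animal or culture named, no test was run, and 5 to 72 cells per set limit the precision.

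The gene, marker lists and comparisons were chosen with earlier results of these data known. Named assays were, between cells with and without Isl1, the 12 largest differences each way of at least 1 cycle, any share differing by at least 50 points, the 5 most and 3 least alike assays, and marker-list members. Names follow the tables, and Isl1 is NCBI Gene 16392. Alternatives were centring each cell (on Actb, on its median detected assay), a limit at Ct 23, detecting cells alone, medians, a filter on cells, shifted row names and sets without repeats. Probe sequences were not used here.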

Additional observations from a re-analysis of the deposited data

Results flagged for a closer look

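In 5 of the 10 sets and assays with any Isl1 signal and 5 to 10 cells, 1 cell stood far from the rest of its set. These were Isl1-2 in CM cells, at 2.48 in CM-2 with 4 cells at 0, Isl1-2 in D29 cells, at 2.48 in D29-3 with the next at 0.22, Isl1-2 in E8.5 cells, at 3.59 in E8.5-6, and both Isl1-2 (4.68) and Isl1-1 (2.91) in E10.5-3 of the stage table. CM-2 and D29-3 are 1 record, so the first 2 are the same value. Chance marks about 1 group in 20 in this way, and a set with 1 detecting cell and the rest at 0 is always marked.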

How the results depend on the processing

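Of the Isl1 shares, levels, differences and counts recomputed under the alternatives, 72 main values stayed close to the reported ones, 6 moved and 2 turned their sign. For shares, close means within the counting interval, and for levels and their differences within the spread between cells. Both are wide in sets this small. The difference of Isl1-2 between D8 and D6 cells, -1.30 as reported, was 0.376 with cells centred on Actb and 1.41 over detecting cells alone. Of the assays at least 1 cycle higher in D5-D8 cells with Isl1, 14 as reported, 7 were counted over D6 to D8 alone and 6 with these days centred on Actb. Of those lower, 5 as reported, 2 were counted after centring on Actb, 2 with the median detected assay as centre 11 over D6 to D8 alone and 21 with these days centred on Actb. The D6 to D8 and within-set comparisons were chosen after seeing the data, as were the sets without repeated cells. A limit at Ct 23 and the filter on cells, which left out 2, 3 and 1 cells of the E7.5-E10.5, E10.5 and ventricular tables and none with Isl1, changed none of the values they were applied to by more than the spread between cells or the counting interval. Among the other values, for single sets and for further pairs of sets, 124 stayed close in this sense and 22 moved. An example of a move is the Isl1-2 difference between D7 and D6 cells, 2.65 centred on Actb against -0.52 as reported. Another is adult ventricular Isl1-2, which would be detected in 40% of cells with row names shifted. Neonatal atrial Isl1-2 counts as close, though it too would be detected in 40% of cells with row names shifted. So does the Isl1-2 difference between D8 and D7 cells, -0.78 as reported and 1.30 over detecting cells alone. Cells are not replicates, so none was left out in turn; levels over detecting cells alone do not exist for sets without any. No result comes from a test. Cells could not be paired between sets, since a number in a cell name only names the cell within its set. At 5 to 10 cells per set, shares of the order seen in the embryo could be missed.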
